A study of Mus musculus with 39 samples.

Results

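Inflammatory cytokines, CXC chemokines and the feedback genes of NF-kB were followed in a mouse lung data set through 10 genes: 3 CXC chemokines (Cxcl1, Cxcl2 and Cxcl3), 3 inflammatory cytokines (Tnf, Il1a and Il1b), 2 genes whose products restrain cytokine action (Il10 and Il1rn), and 2 negative-feedback genes of NF-kB signalling (Nfkbia and Tnfaip3). They were chosen by name, with earlier results of these data known. Each matched 1 row of the deposited table, 10 of 43430 gene rows in all. RNA was sequenced from 39 libraries of cells sorted from C57BL/6J mouse lungs. Of these, 20 held lung monocytes of naive mice. The other 19 held Siglec F-low alveolar macrophages of monocyte origin, taken after bleomycin, which causes lung injury followed by scarring. Mice were young (8 to 12 weeks in the sample labels, 3 to 5 months in the series text) or old (over 18 months in the labels, 18 to 24 months in the series text). They received saline or ISRIB, an inhibitor of the integrated stress response, through which stressed cells reduce protein synthesis. After bleomycin, ISRIB was injected into the peritoneum daily from day 7 and cells were taken on day 21; no timing was given for the naive mice. Each of the 8 groups had 5 libraries except young ISRIB macrophages, which had 4. Every macrophage group received bleomycin and no monocyte group did, so cell type and injury cannot be told apart. The labels do not say that libraries of a group came from different mice, so p-values measure the spread between these libraries only.

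NF-kB is a family of transcription factors that signals from Toll-like, TNF and IL-1 receptors release from cytoplasmic inhibitors. Macrophages answer such signals within minutes to hours with cytokines such as TNF and IL-1 and with the chemokines CXCL1, CXCL2 and CXCL3, which call neutrophils through CXCR2. The same factors switch on their own brakes: Nfkbia encodes the inhibitor I-kappa-B-alpha, and Tnfaip3 encodes A20, which edits ubiquitin chains upstream of NF-kB. Il1rn encodes the antagonist that occupies the IL-1 receptor without signalling, and Il10 encodes a cytokine that dampens macrophage activation.

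Short stretches before the RefSeq start of 5 members are shown because they hold matches to the kappa-B consensus, the DNA pattern that NF-kB binds. Of these genes, Cxcl2, Nfkbia and Tnfaip3 rose with age in saline macrophages in the results that follow. Cxcl1 and Cxcl3 were not called in that comparison, and Il1a, which was called, held no match. Sequences come from RefSeq on GRCm38.p6 and run 5′ to 3′ on the gene's strand, with the matched letters in capitals. Of the 10 members, 9 had a promoter entry (not Il10). For Tnfaip3, RefSeq has 2 starts; the stretch belongs to the first, lies inside the gene as GENCODE annotates it, and the second start had no match.
Cxcl1, chr5:90891125-90891204, plus strand: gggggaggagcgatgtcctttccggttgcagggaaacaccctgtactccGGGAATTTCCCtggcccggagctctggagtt
Cxcl2, chr5:90903779-90903858, plus strand: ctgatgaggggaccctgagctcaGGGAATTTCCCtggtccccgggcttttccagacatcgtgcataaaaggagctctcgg
Cxcl3, chr5:90785981-90786060, plus strand: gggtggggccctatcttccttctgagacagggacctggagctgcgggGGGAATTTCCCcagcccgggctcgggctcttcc
Nfkbia, chr12:55492648-55492727, minus strand: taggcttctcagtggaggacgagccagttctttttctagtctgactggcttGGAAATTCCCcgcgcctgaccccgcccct
Tnfaip3, chr10:19015411-19015436, minus strand: ctggaatttccatcGGAAATCCCCct
In the 250 bases before the RefSeq start, searched on both strands, the consensus matched in Cxcl1, Cxcl2, Cxcl3, Nfkbia and Tnfaip3, 5 of 9 members, against 7.25% of 32851 mouse promoters. The 10 letters first matched in Cxcl1, GGGAATTTCC, were then searched on both strands as they stand, and recurred in 3 of the other 8 members, Cxcl2, Cxcl3 and Nfkbia. Over all promoters 28 held them (0.0852%). In Cxcl1 the match began 71 bases before the start, in Cxcl2 97, in Cxcl3 73 and in Nfkbia 29. In the 3 chemokine genes the capitals run 11 letters because a match on each strand overlaps by all but 1 letter. A match is a description of the letters, not a measured binding site.

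The chemokine genes lie together on chromosome 5 (GRCm38): Cxcl3 (ENSMUSG00000029379) at chr5:90786103-90789600, Cxcl1 (ENSMUSG00000029380) at chr5:90891241-90893115 and Cxcl2 (ENSMUSG00000058427) at chr5:90903871-90905938, all on the plus strand. Their transcripts share some letters: 5.84% of the 50-base words of annotated Cxcl2 transcripts also occur in Cxcl3 or Cxcl1, 3.51% of those of Cxcl3 occur in the other genes, and none of those of Cxcl1 do. Reads from the shared stretch cannot be told apart by sequence, so part of the Cxcl2 and Cxcl3 counts is uncertain. Il1a (ENSMUSG00000027399, chr2:129299610-129309972) and Il1b (ENSMUSG00000027398, chr2:129364570-129371139) are neighbours on the minus strand of chromosome 2. Each overlaps a gene on the opposite strand, Gm14023 for Il1a and Il1bos for Il1b, and the strand setting of the counting is not given in the sources used here. Il1rn (ENSMUSG00000026981) is at chr2:24336853-24351494, plus strand, and Tnf (ENSMUSG00000024401) at chr17:35199381-35202007, minus strand. Il10 (ENSMUSG00000016529) is at chr1:131019845-131024974, plus strand, Nfkbia (ENSMUSG00000021025) at chr12:55489410-55492647, minus strand, and Tnfaip3 (ENSMUSG00000019850) at chr10:19000910-19015657, minus strand.

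Each library held between 4595331 and 16056708 counts (median 8628240). Levels are given as CPM, the count scaled to a common library total. Macrophage and nonclassical monocyte markers separated the cells by their labels: 9 macrophage markers (Adgre1, Cd68, Mrc1, Mertk, Siglecf, Marco, Itgax, Car4 and Pparg) summed to 5264 to 6935 CPM in macrophage libraries and 702 to 1090 CPM in monocyte libraries. A set of 7 markers of nonclassical monocytes summed to 1664 to 5504 CPM in monocytes and 219 to 479 CPM in macrophages. The 7 classical monocyte markers did not separate them, with 5602 to 12683 CPM in monocytes and 3922 to 12169 CPM in macrophages. Young saline monocyte replicate 4 stood apart, with the lowest total (4595331) and 12324 genes detected, against 14956 to 16317 in the other monocyte libraries. Young saline macrophage replicate 5 had the highest total (16056708) and 17313 genes detected, against 13959 to 14566 in the rest of its group. In 17 immediate early genes, which cells switch on within minutes of a stimulus, cell sorting included, 3 macrophage libraries stood apart. Old saline replicates 3 and 5 summed to 6539 and 6552 CPM, against 3620 to 4426 CPM in the other old saline libraries. Young ISRIB replicate 2 summed to 6612 CPM, against 2415 to 4668 CPM in the other young ISRIB libraries, of which replicate 3 was the lowest.

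Levels between genes were compared per kilobase of exon. In young saline macrophages the order ran from Il1b (63.8 CPM per kb) and Nfkbia (59.7) through Il1rn (37.1), Cxcl2 (25.7), Il1a (15.4), Tnfaip3 (9.89), Tnf (7.17), Cxcl1 (1.62) and Cxcl3 (0.736) to Il10, which had no count. Libraries of the neighbours Il1b and Nfkbia, Il1rn and Cxcl2, and Cxcl1 and Cxcl3 overlapped in this order; the other neighbours did not. In old saline macrophages Nfkbia (96.3 CPM per kb) was first and Cxcl2 (76.8) stood level with Il1b (76.9). In young saline monocytes Nfkbia (226 CPM per kb), Il1b (214) and Cxcl2 (104) led, followed by Tnfaip3 (36.9). Il1rn was at 2.94 CPM per kb there and the other 5 members at 2.06 or less. Monocytes held high Il1b, Cxcl2 and feedback transcripts with little Tnf, Il1a, Cxcl1 or Cxcl3, in naive mice.

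**Figure D1:**
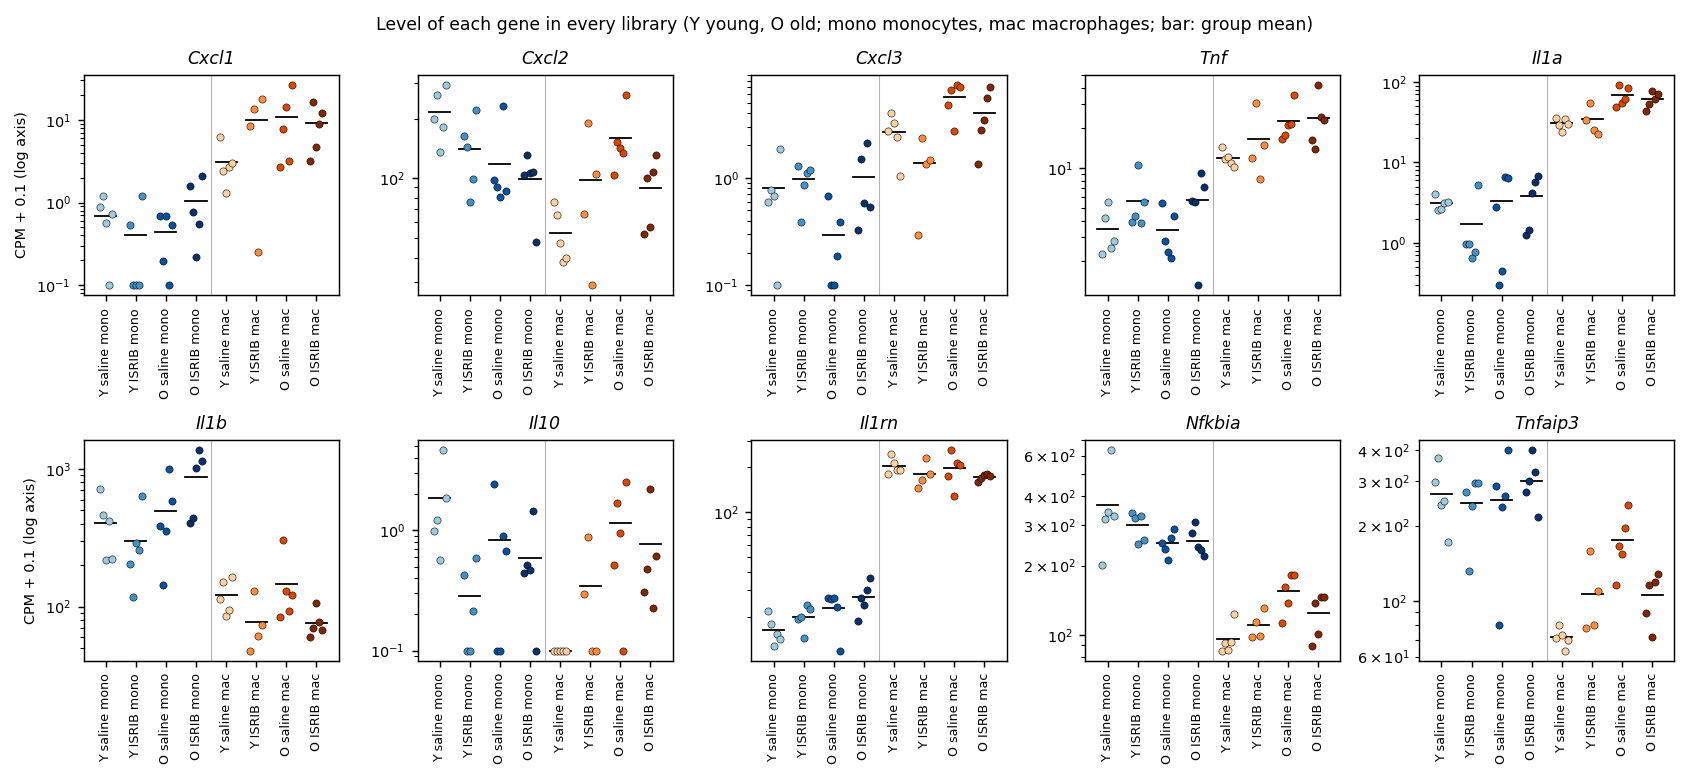
Level of each of the 10 genes in every library (vertical log axis, CPM plus 0.1; 1 point per library, bars at group means; Y young, O old, mono monocytes, mac macrophages). In old saline macrophages all 5 libraries lie above all 5 young saline macrophage libraries for Cxcl2, Tnf, Il1a and Tnfaip3, and the 2 ages overlap under ISRIB.

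The comparison of old with young saline macrophages asks how age changes the recruited macrophage after injury. Tnfaip3, Il1a, Cxcl2 and Nfkbia rose with age. None fell. Il10 was too low to be tested, so 9 members were tested and 4 were called at an adjusted p under 0.05 in edgeR, all higher. Over all 12171 genes tested, 1.16% were called and 0.937% were called higher. At an unadjusted p under 0.05 there were 7 members, against 12.7% of all genes. The median log2 fold change was 1.18 over the 9 members and 0.00 over all genes. In 4 members (Cxcl2, Tnf, Il1a and Tnfaip3) the libraries of the 2 ages did not overlap, against 1.22% of all genes with old above young. In bulk RNA, more cells expressing a gene and more RNA per cell cannot be told apart.

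Among the chemokines, Cxcl2 was at 75.6, 65.5, 47.1, 37.7 and 39.7 CPM in the young saline libraries and at 104, 152, 141, 134 and 262 CPM in the old ones. Every old library was above every young one, and old replicate 5 was the highest. The fold change was 3.08 (log2 1.62 ± 0.35 SE, adjusted p = 0.0195). The call was lost without old saline replicate 5 (log2 1.37, adjusted p = 0.0795) and without young saline replicate 3 (adjusted p = 0.0564) or 4 (adjusted p = 0.0720). Cxcl1 was lower and more scattered, at 6.10, 2.33, 1.19, 2.61 and 2.93 CPM in young and 2.61, 7.69, 14.4, 3.04 and 26.6 CPM in old libraries. In Cxcl1, 3 old libraries were above all young ones and 2 were within them, and Cxcl1 did not pass the test (log2 1.90 ± 0.66 SE, adjusted p = 0.184). Its 2 highest old values came from replicates 3 and 5, the libraries with the highest immediate early sums, and without both the log2 fold change was 0.63. Cxcl3 was at 2.64, 3.88, 3.11, 2.32 and 0.934 CPM in young and 4.71, 6.44, 2.63, 7.27 and 6.93 CPM in old libraries. Only old replicate 3 was within the young range, and the difference did not pass (log2 1.18 ± 0.505 SE, adjusted p = 0.313).

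Of the cytokines, Il1a, the IL-1 form that is active without cleavage and acts as an alarm signal, was at 34.9, 29.3, 23.4, 34.5 and 29.96 CPM in young saline libraries. The old ones had 49.0, 92.4, 53.9, 60.9 and 83.6 CPM. The groups did not overlap, and Il1a rose 2.30-fold (log2 1.20 ± 0.21 SE, adjusted p = 0.00705). The call held whichever library was left out, with adjusted p up to 0.0290, and was lost in 1 fit of all 39 libraries (adjusted p = 0.222). Its antisense neighbour Gm14023 averaged 0.429 ± 0.287 CPM (SD, n = 5) in young and 2.59 ± 1.22 CPM (SD, n = 5) in old libraries, so it moved the same way at a far lower level. Tnf was at 14.3, 11.5, 12.1, 10.7 and 10.1 CPM in young and 16.4, 17.4, 20.8, 21.4 and 35.4 CPM in old libraries. Every old library was above every young one, yet Tnf did not pass the test across all genes (log2 0.97 ± 0.305 SE, adjusted p = 0.128). Il1b, the IL-1 form that needs cleavage by the inflammasome, was at 113, 151, 85.8, 94.0 and 165 CPM in young and 83.6, 307, 129, 92.5 and 121 CPM in old libraries. The ages overlapped widely, with old replicate 2 alone above the young range (log2 0.30 ± 0.28 SE, adjusted p = 0.738). Il1bos averaged 0.0882 CPM or less in both groups.

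The restraining genes divided. Il1rn was at 181 to 246 CPM in young and 128 to 262 CPM in old saline macrophages, with a log2 fold change of -0.02 ± 0.14 SE (adjusted p = 0.984). Il10 had 0 counts in all 5 young saline macrophage libraries, out of 45123428 counts. Its level there was therefore under 0.0665 CPM, the level that 3 counts over the group would give. The old saline libraries held 4, 14, 9, 0 and 24 Il10 counts, 51 in all, so the level was at least 16.5-fold higher by counting alone, but 1 old library had none and no test was made.

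Both feedback genes rose. Tnfaip3 was at 71.3, 79.8, 73.3, 63.3 and 69.6 CPM in young and 116, 165, 154, 196 and 241 CPM in old saline libraries. The young libraries lay within a narrow band and the lowest old library was above all of them. Tnfaip3 rose 2.51-fold (log2 1.33 ± 0.20 SE, adjusted p = 9.79e-04), with the fifth lowest p of all genes tested, and it stayed called whichever library was left out (adjusted p up to 0.00659). Nfkbia was at 85.3, 92.3, 86.1, 93.3 and 123 CPM in young and 113, 161, 137, 183 and 182 CPM in old libraries. Only young replicate 5 and old replicate 1 overlapped, and Nfkbia rose 1.66-fold (log2 0.73 ± 0.15 SE, adjusted p = 0.0160). That call was lost without young saline replicate 1 (adjusted p = 0.0523), 3 (0.0551) or 4 (0.0540) or old saline replicate 5 (0.0577).

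The 17 immediate early genes moved with these results. None passed the test (edgeR), 11 had an unadjusted p under 0.05, and all 17 were higher in old saline macrophages, with log2 fold changes of 0.107 to 1.49 and a median of 0.53. Without old saline replicates 3 and 5, the pair with the highest immediate early sums, 2 of the 4 calls held: Tnfaip3 (log2 1.21, adjusted p = 0.0119) and Il1a (log2 1.21, adjusted p = 0.0326). Cxcl2 (log2 1.36, adjusted p = 0.140) and Nfkbia (log2 0.72, adjusted p = 0.0760) kept fold changes close to those with all libraries and were not called with 3 old libraries. The 6 B cell markers summed to 2.03 to 5.97 CPM in young and 13.5 to 117 CPM in old saline macrophages. The 12 neutrophil markers summed to 82.6 to 124 CPM in young and 89.3 to 156 CPM in old, with Ly6g at 0 in every library of both groups. Dendritic cell markers (6 genes) summed to 8.96 to 13.3 CPM in young and 15.8 to 24.9 CPM in old libraries, without overlap, and T and NK cell markers (8 genes) to 4.65 to 6.98 CPM in young and 4.76 to 21.8 CPM in old. Classical monocyte markers summed to 3922 to 6863 CPM in young and 3937 to 7871 CPM in old. Within the old saline group, replicates 3 and 5 had the highest sums of the neutrophil, classical monocyte and B cell markers as well. The part of these RNAs in the result was not tested.

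**Figure D2:**
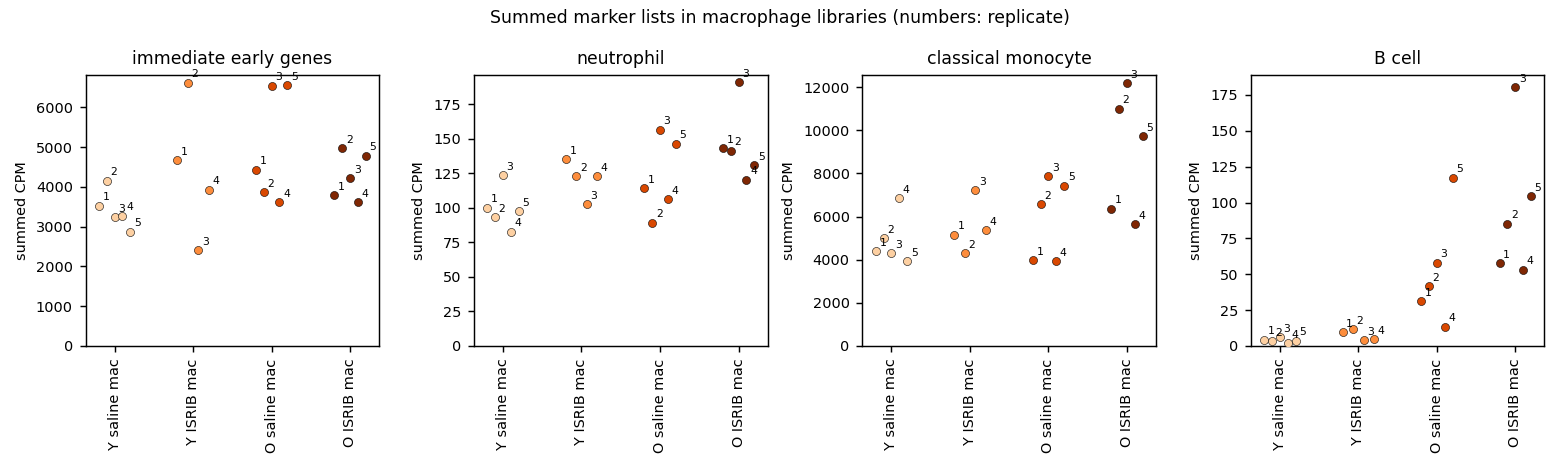
Summed CPM of 4 gene lists in each macrophage library (vertical axes start at 0; 1 point per library, numbered by replicate; Y young, O old). Old saline replicates 3 and 5 and young ISRIB replicate 2 are the highest for immediate early genes, and the B cell sum is at most 11.7 CPM in young and at least 13.5 CPM in old libraries.

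Other genes of the pathway were counted by list. Of 18 further feedback genes, 1 passed in old against young saline macrophages: Nfkbiz, which encodes a nuclear I-kappa-B protein, was at 25.6 ± 4.27 CPM (SD, n = 5) in young and 55.2 ± 24.6 CPM (SD, n = 5) in old libraries (log2 1.15 ± 0.275 SE, adjusted p = 0.0332). In all, 15 of the 18 had a positive log2 fold change, with a median of 0.32. None of the 18 NF-kB subunits, kinases and adaptors passed, and their median was 0.06. Among 8 other CXC chemokines tested, Cxcl13, which attracts B cells, rose, with 2.47 ± 0.791 CPM (SD, n = 5) in young and 8.01 ± 3.03 CPM (SD, n = 5) in old libraries (adjusted p = 0.0195). Among 8 receptors tested, Cxcr1, a chemokine receptor, was called higher, with 1.26 ± 1.12 CPM (SD, n = 5) in young and 9.95 ± 11.4 CPM (SD, n = 5) in old libraries (adjusted p = 0.0424). Neither the 9 other inflammatory mediators tested nor the 7 genes of IL-1 and TNF processing held a called gene.

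The same comparison of ages under ISRIB called 0 of 9 members in edgeR, with 2 at an unadjusted p under 0.05 (12.2% of all genes), while 0.937% of all genes were called. DESeq2 called 1 member, Il1a, and limma voom called 0. The median of the members was -0.03. Tnfaip3 was at 77.7, 159, 80.04 and 110 CPM in young and 89.5, 116, 71.7, 119 and 128 CPM in old ISRIB macrophages, and the ages overlapped (log2 -0.03 ± 0.21 SE, adjusted p = 0.974). Cxcl2 was at 66.3, 189, 28.9 and 106 CPM in young and 52.3, 100.3, 56.9, 108 and 130 CPM in old libraries, again overlapping (log2 -0.15 ± 0.36 SE, adjusted p = 0.923). In both genes young replicate 2, the library with the highest immediate early sum, was the highest of all 9 libraries. Without it the log2 fold changes were 0.25 for Tnfaip3 and 0.42 for Cxcl2, and neither passed. Nfkbia differed by log2 0.16 ± 0.16 SE (adjusted p = 0.761).

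Il1a, which had the lowest adjusted p of the members under ISRIB, did not pass. It was at 33.1, 54.9, 25.3 and 22.3 CPM in young and 42.7, 52.9, 77.0, 61.0 and 70.0 CPM in old libraries (log2 0.82 ± 0.23 SE, adjusted p = 0.0851), and only young replicate 2 reached into the old range. Without that library Il1a was called (log2 1.17, adjusted p = 0.00662), and also without old ISRIB replicate 1 (adjusted p = 0.0495). Cxcl3 was at 0.193, 2.24, 1.24 and 1.38 CPM in young and 1.24, 2.66, 3.37, 5.43 and 6.85 CPM in old ISRIB macrophages (log2 1.63 ± 0.58 SE, adjusted p = 0.200). The 17 immediate early genes had a median of -0.06 in this comparison, with 7 positive, and the 18 other feedback genes a median of -0.01.

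Whether age acted differently under saline and ISRIB was tested directly by the interaction, which is also the test of whether ISRIB acted differently in old and young mice. It called 0 of 9 members and 0% of all genes in edgeR, and 0 genes in DESeq2 and limma voom. Tnfaip3, Cxcl2, Nfkbia and Cxcl1 (4 members) had an unadjusted p under 0.05, against 5.10% of all genes. Tnfaip3 had the lowest p of the 12171 genes (log2 -1.36 ± 0.28 SE, unadjusted p = 6.3e-05, adjusted p = 0.717). Cxcl2 had log2 -1.77 ± 0.50 SE (adjusted p = 0.765). Without the filter on low counts edgeR called both, Tnfaip3 with adjusted p = 3.42e-08 and Cxcl2 with adjusted p = 1.28e-07. Over all genes the fit without the filter called 33 of 22729. With the filter kept and a replicate block added, Tnfaip3 was the only gene called. The call of a difference between the treatments therefore depends on the settings of the fit, the filter among them.

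Averaged over both treatments, old against young macrophages called 4 members higher and none lower, where 4.86% of all genes were called, 3.12% higher and 1.74% lower. They were Il1a (log2 1.01 ± 0.16 SE, adjusted p = 3.00e-04), Tnfaip3 (log2 0.65 ± 0.14 SE, adjusted p = 0.00744), Nfkbia (log2 0.45 ± 0.11 SE, adjusted p = 0.0184) and Cxcl3 (log2 1.40 ± 0.38 SE, adjusted p = 0.0328). In 1 fit of all 39 libraries none of these 4 was called, with adjusted p of 0.0597, 0.0686, 0.0542 and 0.104 in the same order, and Il10 was the only member called. The Cxcl3 call was lost without any 1 of 9 libraries, with adjusted p of 0.0503 to 0.0782. In young mice they were saline replicates 4 and 5 and ISRIB replicates 1, 3 and 4; in old mice they were replicates 4 and 5 of either treatment. Tnf stood just outside the threshold (log2 0.74 ± 0.22 SE, adjusted p = 0.0516). Without young ISRIB replicate 2, Cxcl2 (adjusted p = 0.00993) and Tnf (adjusted p = 0.00358) were called as well. So was Il10, which then passed the filter. The genes tested differ between these fits, so their numbers of calls are not a like comparison. In the lists, Nfkbie and Tnip1, both feedback genes, rose by log2 0.60 and 0.33, and Cxcr1 and Cxcr2 by 2.72 and 1.75. Cxcr2 is also one of the neutrophil markers.

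**Figure D3:**
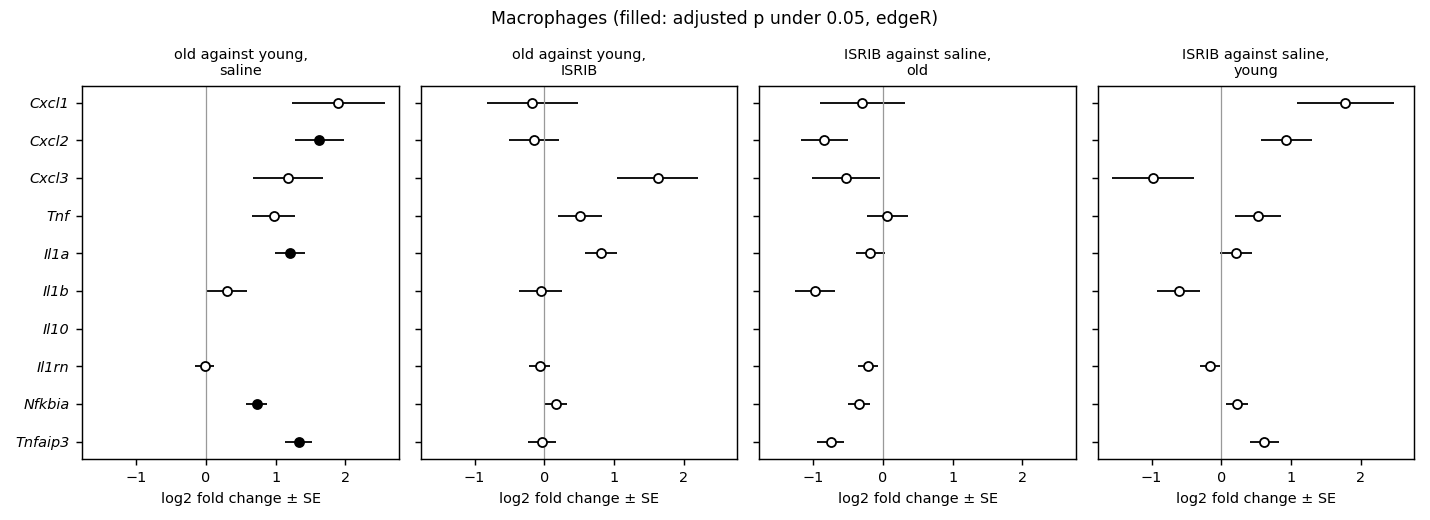
Log2 fold change ± SE of the members in 4 comparisons of macrophages (horizontal axis; filled points have an adjusted p under 0.05 in edgeR, open points do not; Il10 was not tested). Cxcl2, Il1a, Nfkbia and Tnfaip3 are filled in old against young under saline, and no point is filled in the other 3 comparisons.

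The comparison of ISRIB with saline asks what the drug did to the macrophages of each age. In old mice, edgeR called 0 of 9 members and 0% of all genes. Tnfaip3, Il1b, Cxcl2 and Nfkbia (4 members) had an unadjusted p under 0.05, against 9.14% of all genes. DESeq2 called 0 members and 43 genes, and limma voom 0 of either. All 4 members were lower with ISRIB. The mean of Tnfaip3 was 174 ± 47.3 CPM (SD, n = 5) with saline and 105 ± 23.6 CPM (SD, n = 5) with ISRIB (log2 -0.75 ± 0.19 SE, adjusted p = 0.216). Cxcl2 had means of 159 ± 60.5 CPM (SD, n = 5) with saline and 89.5 ± 33.8 CPM (SD, n = 5) with ISRIB (log2 -0.84 ± 0.34 SE, adjusted p = 0.484). The libraries of the 2 treatments overlapped for every member. Il1b was at 60.2, 69.4, 105, 76.6 and 67.6 CPM with ISRIB, against the 83.6 to 307 CPM with saline given for the old libraries (log2 -0.97 ± 0.29 SE, adjusted p = 0.294). The difference rested largely on old saline replicate 2, without which it was log2 -0.51 (adjusted p = 0.793). Without old saline replicates 3 and 5 together, Il1b was called (log2 -1.12, adjusted p = 0.0467). B cell markers summed to 53.3 to 180 CPM in old ISRIB macrophages and classical monocyte markers to 5651 to 12169 CPM, and the part of either in these values was not tested.

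In young macrophages the values ran the other way for several members, again without a call: 0 of 9 members and 0% of all genes in edgeR, 0 members and 105 genes in DESeq2, and 0 of either in limma voom. Cxcl1, Cxcl2 and Tnfaip3 had an unadjusted p under 0.05, against 12.4% of all genes. Cxcl1 was at 8.38, 13.5, 0.155 and 17.6 CPM with ISRIB, against 1.19 to 6.10 CPM with saline, so 3 of the 4 ISRIB libraries were above all saline ones and replicate 3 was below them (log2 1.78 ± 0.69 SE, adjusted p = 0.283). Without that library, Cxcl1 (log2 2.18, adjusted p = 0.0476) and Cxcl2 (log2 1.24, adjusted p = 0.0374) were called in edgeR. The share of all genes called in that fit is not given here. Leaving out any other single library called no member, and neither did leaving out replicates 2 and 3 together. Cxcl2 was at 189 CPM in replicate 2 and 28.9 to 106 CPM in the other ISRIB libraries, against 37.7 to 75.6 CPM with saline. With all libraries, Tnfaip3 differed by log2 0.61 ± 0.21 SE (adjusted p = 0.213) and Cxcl2 by log2 0.93 ± 0.365 SE (adjusted p = 0.284). Young ISRIB replicates 2 and 3 also had the highest and the lowest immediate early sums of their group.

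Averaged over both ages, ISRIB against saline called 0 of 9 members in edgeR, where 0.830% of all genes were called, and 0 in DESeq2 and limma voom. Il1b was the only member with an unadjusted p under 0.05 (16.6% of all genes), and it stood just outside the threshold (log2 -0.79 ± 0.21 SE, adjusted p = 0.0599). It was called without old saline replicate 3 (adjusted p = 0.0401) or 5 (0.0359), and without young ISRIB replicate 2 (0.0394) or 3 (0.0491). The share of all genes called in those fits is not given here. With any other single library left out Il1b was not called, among them old saline replicate 2 (307 CPM, next 129). In young mice Il1b was at 47.7, 129, 60.6 and 72.8 CPM with ISRIB, against 85.8 to 165 CPM with saline. Of the listed genes, Bcl3 (log2 -0.74 ± 0.13 SE, adjusted p = 0.00920) and Socs3 (log2 -0.42 ± 0.10 SE, adjusted p = 0.0429), both feedback regulators, and Lif, a cytokine of the IL-6 family (log2 -1.07 ± 0.23 SE, adjusted p = 0.0296), fell.

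In monocytes of naive mice, 7 members could be tested; Cxcl1, Cxcl3 and Il10 were too low, at up to 2.02, 2.02 and 4.57 CPM in any library. Across the 7 comparisons of age, ISRIB and their interaction, edgeR, DESeq2 and limma voom each called 0 members. The share of all genes called in edgeR was 0.0247% for old against young under saline, 0.123% for the mean of both treatments, and 0% in the other 5. At an unadjusted p under 0.05, old against young held 2 members under saline, Cxcl2 and Nfkbia (8.81% of all genes), 2 under ISRIB (6.60% of all genes) and 4 on the mean of both treatments (8.24%). ISRIB against saline held 0 in old (7.54% of all genes), 0 in young (6.65%) and 1, Tnf, on the mean of both ages (7.49%), and the interaction 0 (7.11%). Cxcl2 was at 199, 264, 135, 182 and 296 CPM in young and 97.8, 90.7, 80.3, 232 and 86.6 CPM in old saline monocytes. In Cxcl2, 4 old libraries were below every young one, and replicate 4 was among the young values (log2 -0.91 ± 0.31 SE, adjusted p = 0.356). Nfkbia was at 364 ± 162 CPM (SD, n = 5) in young and 249 ± 28.6 CPM (SD, n = 5) in old saline monocytes (log2 -0.58 ± 0.19 SE, adjusted p = 0.321). Without young saline replicate 4, at 636 CPM, the log2 difference was -0.29 (adjusted p = 0.452). The mean of Il1b was highest in old ISRIB monocytes, at 403, 439, 1016, 1380 and 1144 CPM, against 204, 117, 288, 257 and 636 CPM in young ISRIB monocytes (log2 1.58 ± 0.49 SE, adjusted p = 0.434). Tnfaip3 averaged 247 to 302 CPM in the 4 monocyte groups.

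The comparison of saline macrophages with saline monocytes sets injured-lung macrophages beside naive-lung monocytes. In young mice all 10 members were called, 5 higher and 5 lower in macrophages, where 60.0% of all genes were called. Of the members, Cxcl1 and Cxcl3 were too low to be tested in monocytes alone, and Il10 in either cell type alone. The fit of all 39 libraries let them through the filter on low counts. A gene low in 1 cell type can pass that filter through the other, which favours a call. This limit of the filter applies to Cxcl1, Cxcl3 and Il10, so 10 is not a like count against the share of all genes. Il1rn was the clearest: 12.6 to 21.6 CPM in young saline monocytes and 181 to 246 CPM in macrophages, a 12.8-fold difference (log2 3.68 ± 0.21 SE, adjusted p = 2.32e-18). Il1a averaged 3.02 ± 0.589 CPM (SD, n = 5) in monocytes and 30.4 ± 4.68 CPM (SD, n = 5) in macrophages, 10.2-fold higher (adjusted p = 2.17e-07). Tnf was at 3.37 ± 1.38 CPM (SD, n = 5) in monocytes and 11.7 ± 1.63 CPM (SD, n = 5) in macrophages, 3.52-fold higher (adjusted p = 1.34e-04). Cxcl1 and Cxcl3 were also higher in macrophages, by log2 2.23 ± 0.83 SE (adjusted p = 0.0193) and 1.85 ± 0.67 SE (adjusted p = 0.0169), from under 1 CPM on average in monocytes. Without young saline monocyte replicate 4 all 10 members were still called. The Cxcl1 call was lost without young saline macrophage replicate 1 (adjusted p = 0.0655) and with limma voom (adjusted p = 0.134).

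The genes lower in young macrophages were Cxcl2 (log2 -1.98 ± 0.37 SE), Il1b (log2 -1.73 ± 0.44 SE), Nfkbia (log2 -1.86 ± 0.18 SE), Tnfaip3 (log2 -1.87 ± 0.28 SE) and Il10. Nfkbia was at 199.995 to 636 CPM in monocytes and 85.3 to 123 CPM in macrophages, and Tnfaip3 at 171 to 372 CPM and 63.3 to 79.8 CPM, with no overlap in either gene. Over all 13587 genes tested, 18.9% had no overlap with macrophages lower. Il10 had 4 to 21 counts in each young saline monocyte library, 58 in all, and 0 in the macrophages, at least 21.6-fold lower by counting. Immediate early genes moved the same way: 15 of 17 were called lower and 1 higher in young macrophages. Their sum was 12747 to 19546 CPM in young saline monocytes and 2867 to 4157 CPM in macrophages, and its part in the result was not tested. Of 18 other feedback genes 15 were lower and 2 higher, and of 18 NF-kB subunits, kinases and adaptors 12 were lower and 0 higher, among them Nfkb1 (log2 -1.02 ± 0.08 SE) and Rel (log2 -2.16 ± 0.29 SE). Neutrophil markers summed to 512 to 825 CPM in young saline monocytes and 82.6 to 124 CPM in macrophages. In the monocytes Csf3r, at 380 to 467 CPM, and Mmp8, at 88.4 to 378 CPM, made up most of that sum, while S100a8 was at 12.6 CPM or less.

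In old mice 7 members were called, where 57.0% of all genes were called. Cxcl1 and Cxcl3 are among them, under the same limit of the filter. Cxcl1, Cxcl3, Tnf, Il1a and Il1rn were again higher, and Il1b (log2 -1.63 ± 0.44 SE, adjusted p = 0.00161) and Nfkbia (log2 -0.55 ± 0.18 SE, adjusted p = 0.00808) were lower. Cxcl2 (log2 0.56 ± 0.36 SE, adjusted p = 0.184) and Tnfaip3 (log2 -0.40 ± 0.27 SE, adjusted p = 0.199) did not pass. Each depended on 1 library: Cxcl2 was called higher without old saline monocyte replicate 4 (log2 0.98, adjusted p = 0.0200), and Tnfaip3 was called lower without replicate 2 (log2 -0.63, adjusted p = 0.0221). With library totals as the only scaling, the median of all genes in this comparison moved to -0.13. On the mean of young and old saline mice all 10 members were called, in the directions seen in young mice, where 70.0% of all genes were called. The limit of the filter on Cxcl1, Cxcl3 and Il10 holds here too. The Cxcl2 call there (log2 -0.71 ± 0.25 SE, adjusted p = 0.0127) was lost without old saline monocyte replicate 4 (adjusted p = 0.0669).

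**Figure D4:**
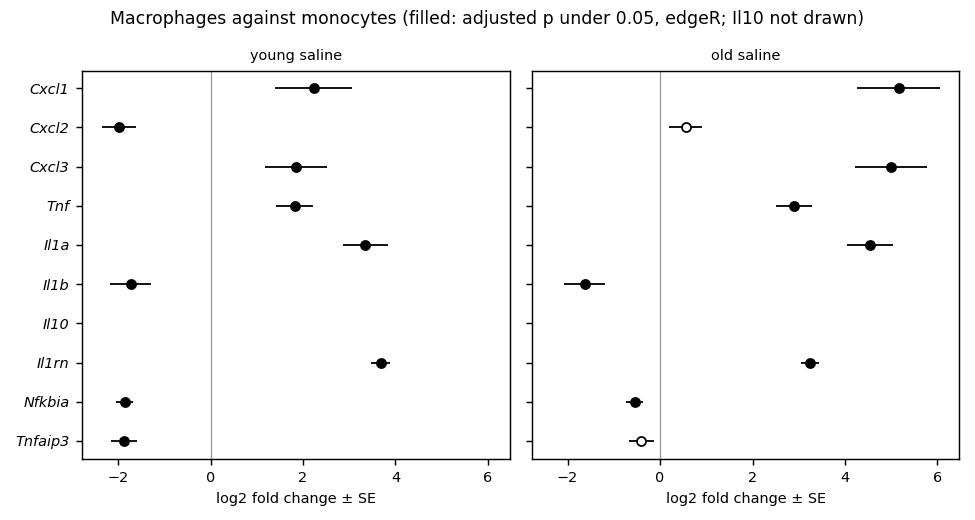
Log2 fold change ± SE of macrophages against monocytes in young and in old saline mice (horizontal axis; filled points have an adjusted p under 0.05 in edgeR; Il10, with no count in young saline macrophages, is not drawn). Cxcl1, Cxcl3, Tnf, Il1a and Il1rn lie to the right of 0 at both ages, and Cxcl2, Nfkbia and Tnfaip3 lie further left in young than in old mice.

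The age effect in saline macrophages was compared directly with the age effect in saline monocytes. It called 2 members, Nfkbia (log2 1.31 ± 0.25 SE, adjusted p = 0.0149) and Cxcl2 (log2 2.54 ± 0.51 SE, adjusted p = 0.0203), where 0.250% of all genes were called. Of those 34 genes 20 were higher and 14 lower; with library totals as the only scaling the split was 12 and 21. Both members had a lower mean in old than in young monocytes and a higher one in old than in young macrophages. The Cxcl2 call was lost without old saline macrophage replicate 5 (log2 2.29, adjusted p = 0.0653), and Nfkbia stayed called whichever library was left out (adjusted p up to 0.0458), with log2 1.04 without young saline monocyte replicate 4. Tnfaip3 (log2 1.47 ± 0.38 SE, adjusted p = 0.0757) did not pass, and it was called without young saline monocyte replicate 5 (adjusted p = 0.0364) or old saline monocyte replicate 5 (adjusted p = 0.0325). Il1a (log2 1.19 ± 0.68 SE, adjusted p = 0.537) and Tnf (log2 1.08 ± 0.55 SE, adjusted p = 0.471) did not pass. In the lists Nfkbiz and Il15 were called higher, by log2 1.56 ± 0.35 SE and 1.48 ± 0.31 SE.

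Correlations of the members across libraries are given as a description, because libraries of a group share their condition. Over 19 macrophage libraries, 20 of 36 pairs of the 9 tested members had a Pearson r of log2 CPM above 0.5, with a median of 0.54. After subtracting each group's mean, 12 pairs exceeded 0.5 and the median was 0.43. Tnfaip3 and Cxcl2 were the closest pair (r = 0.91), followed by Tnfaip3 and Nfkbia (r = 0.87), Tnf and Il1a (r = 0.80) and Cxcl1 and Cxcl2 (r = 0.79). Within groups these 4 were 0.85, 0.74, 0.67 and 0.82, and Cxcl2 and Nfkbia went from 0.77 to 0.55. Il1rn had an r of -0.03 with Cxcl2 and -0.39 with Cxcl1. Over 20 monocyte libraries, 3 of 21 pairs exceeded 0.5 and the median was 0.02; these were Il1a and Il1b (r = 0.77), Il1b and Tnfaip3 (r = 0.67) and Il1a and Tnfaip3 (r = 0.56), and the same 3 pairs exceeded 0.5 within groups. Cxcl2 and Tnfaip3 had an r of 0.10 there.

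**Figure D5:**
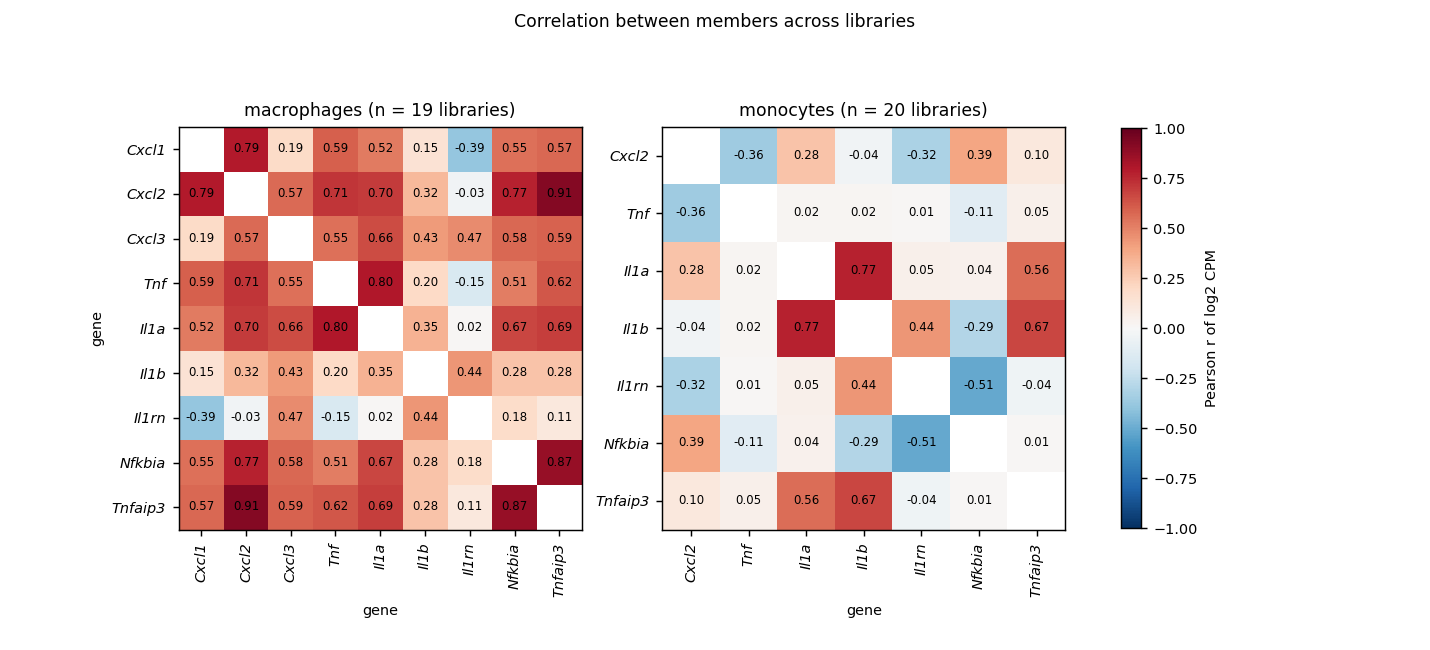
Pearson r of log2 CPM between members over 19 macrophage libraries (left, 9 genes) and 20 monocyte libraries (right, 7 genes); colour runs from blue at -1 to red at 1. Cxcl2, Nfkbia and Tnfaip3 share r of 0.77 to 0.91 in macrophages, and in monocytes the pairs above 0.5 are among Il1a, Il1b and Tnfaip3.

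The genes whose pattern over the macrophage libraries was most like each member were, for Cxcl2, Ccrl2 (r = 0.95), Hilpda (0.93) and Cd14 (0.92), and for Tnfaip3, Cxcl2, Nfkbia and Pnrc1 (0.87). Cxcl1 was closest to Dusp1 (r = 0.83), Fos (0.83) and Uprt (0.83). Fos was listed here with the immediate early genes and Dusp1 with the other feedback genes. For Nfkbia they were Tnfaip3, Traf2 (r = 0.83) and C3 (0.82), for Tnf Sp140 (0.85), Ccl3 (0.83) and Tank (0.83), and for Il1a Map3k8 (0.85), Clec1a (0.85) and Ubtd1 (0.84). Il1b was closest to Hlx (r = 0.79), Fosl2 (0.78) and Vamp8 (0.72). In monocytes Il1b was closest to Vegfa (r = 0.94), Odc1 (0.93) and Nr4a2 (0.92), and Tnfaip3 to Nr4a1 (0.90), Pmaip1 (0.90) and Bhlhe40 (0.85).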

How the data were processed

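The deposited table gives counts per the file headers: unscaled whole numbers, with 1 row for each Ensembl gene and 1 column for each library. The submitters' processing notes name the build mm10 and bcl2fastq 2.19.1, FastQC, Trimmomatic 0.36, STAR 2.6.0 and HTSeq 0.11.2, with no roles. For the annotation and the strand setting, the sources used here give nothing. Per the labels, polyA libraries were made from 3 ng of RNA. Symbols came from GENCODE vM21 (97.77% of IDs matched).

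Genes were tested on the deposited counts by edgeR 4.0.16 in R 4.3.3 (quasi-likelihood test), with TMM scaling, filterByExpr (minimum count 10, minimum total 15) and Benjamini-Hochberg adjustment over all genes tested; a call means an adjusted p under 0.05. Macrophages (19 libraries, 12171 genes), monocytes (20, 12170) and all libraries (39, 13587) were fitted separately, with 18 comparisons. CPM are counts over the library total; per-kilobase levels divide by exon length. Correlations used log2 CPM (prior count 2) and, for likeness, genes averaging at least 5 CPM. Alternatives were DESeq2 1.42.0, limma voom 3.58.1, no filter on low counts, RLE scaling, library totals, a replicate block, 1 fit of all libraries for comparisons within a cell type, and leaving out each library. The script was tested on simulated data. All members are named, with at most 4 called genes per list and comparison. The members and lists were chosen with earlier results of these data known, and leaving out 2 libraries together was added after seeing the data.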

Additional observations from a re-analysis of the deposited data

Results flagged for a closer look

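In 79 groups of 4 or 5 libraries with values for a member, 8 had 1 library far from the others. Chance would give about 1 in 20 for independent, normally distributed values. The members share libraries and their CPM need not be normal, so 8 is not read as an excess. In macrophages they were Tnf in old saline replicate 5 (35.4 CPM, next 21.4), Il1b in old saline replicate 2 (307 CPM, next 129), Nfkbia in young saline replicate 5 (123 CPM, next 93.3) and Il10 in old ISRIB replicate 3 (2.12 CPM, next 0.517). In monocytes they were Cxcl2 in old saline replicate 4 (232 CPM, next 97.8), Tnf in young ISRIB replicate 3 (10.4 CPM, next 5.45), Il1a in young ISRIB replicate 5 (5.08 CPM, next 0.873) and Il1rn in old saline replicate 5, which was low (11.7 CPM, next 23.2).

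The age effect under saline differed between macrophages and monocytes for Cxcl2 (log2 2.54, adjusted p = 0.0203) and Nfkbia (log2 1.31, adjusted p = 0.0149) by the test of the difference in edgeR.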

How the results depend on the processing

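Replicate numbers are shared between groups, and whether they pair the libraries is not known. Same-numbered libraries of different groups had a median correlation of deviations of 0.00384 over 27 pairs in macrophages and -0.0142 over 30 in monocytes. In macrophages 7 of 19 libraries correlated best with their own number, and in monocytes 2 of 20. These values cannot exclude pairing. With a replicate block, ISRIB against saline in macrophages called 343 genes on the mean of ages (101 without it) and 10 in young (0 without it). With the replicate block 1 member was called for ISRIB against saline on the mean of ages (Il1b) and 1 in the interaction (Tnfaip3, adjusted p = 0.0376); the Cxcl3 call on the mean of treatments was lost (adjusted p = 0.0582). Without a filter on low counts, the members called in macrophages were 3 for ISRIB in old, 4 for ISRIB in young, 1 for ISRIB on the mean of ages, 7 for age under saline, 1 for age under ISRIB, 8 for age on the mean of treatments and 2 for the interaction. Of all 22729 genes in that fit, 220, 224, 640, 468, 405, 975 and 33 were called in the same order. With the filter they were 0, 0, 101, 141, 114, 592 and 0 of 12171, so calls rose over all genes. DESeq2 called 1 for age under ISRIB and 4 for the difference of the age effects between cell types. In 1 fit of all 39 libraries, age on the mean of treatments called 1 (Il10, and none of the 4 called otherwise), and the Il1a call for age under saline was lost (adjusted p = 0.222). Leaving out 1 library gave 0 to 2 for ISRIB in young, 0 to 1 for ISRIB on the mean of ages, 2 to 5 for age under saline, 0 to 1 for age under ISRIB, 3 to 7 for age on the mean of treatments and 1 to 3 for the difference between cell types. The share of all genes called in each of those fits is not given here, so these counts describe the members only. Without old saline macrophage replicates 3 and 5 together, 1 member was called for ISRIB in old, 1 for ISRIB on the mean of ages and 2 for age under saline. Of 12322 genes in that fit, 513, 1100 and 28 were called. Without young ISRIB replicates 2 and 3 together, 1 member was called for ISRIB on the mean of ages, among 316 of 12863 genes. The cause of these moves was not tested beyond the fewer libraries or other genes in each fit. Of 152 member results, 35 changed sign under an alternative, none of them called either way. Among those described, age under ISRIB turned positive for Cxcl2 with limma voom (log2 0.0318) and without young ISRIB replicates 2 and 3 together (0.0607), and ran from -0.451 to 0.423 with 1 library left out. For Tnfaip3 it was 0.1635 without that pair and ran from -0.1655 to 0.2485 with 1 library left out. Il1a for ISRIB in young was -0.0918 without that pair and ran from -0.151 to 0.354 with 1 library left out. Counts over all genes moved too. With DESeq2 and without a filter on low counts, age in macrophages called 294 and 468 genes under saline (141 in edgeR) and 260 and 405 under ISRIB (114), ISRIB on the mean of ages 440 and 640 (101), and the difference between cell types 141 and 76 (34; limma voom 22). In 1 fit of all libraries the first 3 were 60, 50 and 17, and age on the mean of treatments 340 (592). Without old saline replicates 3 and 5 age under saline called 28, and ISRIB in old 513 (0). In monocytes DESeq2 called 46, 22 and 83 genes for age under saline, under ISRIB and on the mean (3, 0 and 15). Depth limits Cxcl1, Cxcl3 and Il10, which had at most 261, 68 and 24 counts in any library.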
